A study of Homo sapiens with 9 samples.

Results

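The MYC, MAX and MXD network is a set of transcription factors of the basic helix-loop-helix leucine zipper class that compete for shared DNA sites. The 10 genes described here, MYC, MAX, MXI1, MXD1, MXD3, MXD4, MNT, MLX, MLXIP and MGA, were taken by symbol from the 17492 genes of the table. All 10 passed the filter on low counts, as did 12832 genes in all. The RNA came from 9 samples of HCCLM3 cells, a highly metastatic cell line established from human liver cancer. All carry the genotype label WT. The groups were the vehicle DMSO (3 samples), quercetin, a plant flavonol, at 50 µM (3 samples) and quercetin at 100 µM (3 samples). How long the cells were treated is not stated in the labels. The study is on quercetin in hepatocellular carcinoma, and each comparison asks how a dose of quercetin altered the RNA of these cells.

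MYC binds DNA only as a dimer with MAX. The dimer recognises the sequence CACGTG, called an E-box, and raises the transcription of genes for growth, ribosome assembly and metabolism. The MXD proteins (MXD1, MXI1, MXD3 and MXD4), MNT and MGA also dimerise with MAX, occupy the same sites and mostly repress. MLX is a second partner that dimerises with MLXIP (MondoA), a sensor of glucose-derived metabolites, and with some MXD proteins. In hepatocellular carcinoma MYC is a frequent oncogene, and a high level of MXD proteins relative to MYC is a known feature of differentiated cells.

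The libraries held between 20061136 and 21599805 estimated counts each. The labels do not say whether a group's replicates were separate cultures, and the p-values therefore rest on a spread between libraries that may be technical. Control replicate 1 and 100 µM replicate 3 stood apart from the other libraries of their groups. The chi-square of the counts was 27.6 and 27.4 per gene between control replicate 1 and the other two controls, which differed from each other by 3.56. Between 100 µM replicate 3 and the other two libraries at 100 µM it was 83.9 and 86.1, against 5.04 between those. Member calls that changed without either of these libraries alone are given with and without it. For the gene lists this is done only in part. The liver factors HNF4A (9.58 to 21.2 TPM) and FOXA2 (39.0 to 60.0 TPM) were present in every library, as were KRT8, KRT18 and KRT19. ALB was low, at 0.760 to 1.99 TPM with DMSO, 5.62 to 9.57 TPM at 50 µM and 6.73 to 14.0 TPM at 100 µM. Of 10 tested hepatocyte markers, not all named here, 3 were called higher and 3 lower at 50 µM against DMSO. At 100 µM 4 were called higher and 2 lower. Of all genes tested, 5.28% were called higher and 6.31% lower at 50 µM, and 10.7% and 10.3% at 100 µM. EPCAM did not exceed 0.690 TPM. Of the fibroblast markers, LUM (54.6 to 106 TPM) and DCN (1.17 to 4.82 TPM) were present in each library and the others, among them COL1A1 and PDGFRB, did not exceed 0.260 TPM. Of the endothelial markers, PECAM1 was at 8.97 to 11.3 TPM at 100 µM, at 8.86 to 10.5 TPM at 50 µM and at 17.1 to 19.0 TPM with DMSO, KDR did not exceed 3.17 TPM, and VWF, CDH5 and TEK did not exceed 1.18 TPM. Of the leukocyte markers, CD68 was at 162 to 376 TPM and the others, among them PTPRC and CD3E, did not exceed 1.78 TPM. The part of these markers in the results was not tested.

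Of the members' promoters, 3 hold the E-box, and they belong to MXD4, MNT and MLX. RefSeq (GRCh38.p14) gave 14 promoter windows of 300 bases, from 250 before to 50 after a start site, for 9 of the 10 members. MYC was left out of this search. The motif was searched as CACGTG, which reads the same on both strands. It was found in 3 of 9 members (33.3%), against 2396 of 27305 genes with a promoter in the table (8.77%) and 1327 of 10525 genes that were tested (12.6%). The 250 bases before each of the 3 start sites are shown, with the E-box in capitals. These are the members whose own promoters hold the sequence that the network recognises. Whether it is bound in these cells was not measured. Their positions are chr4:2262110-2262359 on the minus strand, chr17:2401061-2401310 on the minus strand and chr17:42566850-42567099 on the plus strand.
MXD4: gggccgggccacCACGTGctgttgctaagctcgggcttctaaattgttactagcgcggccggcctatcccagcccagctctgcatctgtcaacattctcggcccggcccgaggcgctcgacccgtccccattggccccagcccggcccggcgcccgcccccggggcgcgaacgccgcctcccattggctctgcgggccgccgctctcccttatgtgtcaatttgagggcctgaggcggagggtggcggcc
MNT: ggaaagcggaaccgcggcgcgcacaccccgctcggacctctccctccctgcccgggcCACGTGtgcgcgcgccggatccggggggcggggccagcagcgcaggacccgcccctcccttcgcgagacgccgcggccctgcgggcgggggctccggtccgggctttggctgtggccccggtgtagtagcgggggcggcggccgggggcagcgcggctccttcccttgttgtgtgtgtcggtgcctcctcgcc
MLX: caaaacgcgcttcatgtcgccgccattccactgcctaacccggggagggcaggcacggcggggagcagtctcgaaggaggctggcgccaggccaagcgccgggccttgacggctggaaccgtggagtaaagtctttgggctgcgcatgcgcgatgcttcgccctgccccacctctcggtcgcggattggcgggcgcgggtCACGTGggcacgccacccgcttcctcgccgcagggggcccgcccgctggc

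MYC was lower at 100 µM than in either other group. Levels are given as TPM (a length-corrected share of a library's transcripts), as the authors deposited them. MYC (chr8:127730157-127742951) was at 77.1, 74.8 and 65.6 TPM in the DMSO libraries, at 70.4, 78.8 and 71.9 TPM at 50 µM and at 56.5, 54.3 and 53.3 TPM at 100 µM. All 3 libraries at 100 µM lay below all 6 others, and those at 50 µM overlapped the controls. The log2 fold change was -0.34 ± 0.0759 (standard error) for 100 µM against DMSO, 1.26-fold lower (edgeR, adjusted p = 0.0142). For 100 against 50 µM it was -0.42 ± 0.0759 (edgeR, adjusted p = 0.0201), and for 50 µM against DMSO it was 0.08 ± 0.0757 (edgeR, adjusted p = 0.465). Without control replicate 2 the change at 100 µM against DMSO was -0.31 (edgeR, adjusted p = 0.0703), and it stayed past the threshold of 0.05 without any other single library. With only the libraries of those groups in the fit it was -0.33 (edgeR, adjusted p = 0.0687). The call between the doses was lost without any single one of 5 libraries, the 3 at 50 µM and replicates 1 and 2 at 100 µM, with edgeR's adjusted p between 0.0666 and 0.100 and log2 fold changes of -0.45 to -0.39. In bulk RNA, fewer cells of a type and less RNA per cell cannot be told apart.

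Of the 10 members, 2 were called higher at 100 µM against DMSO (MXD4 and MNT), where 10.7% of all genes tested were, and 1 was called lower (MYC), where 10.3% were. At 50 µM against DMSO, 2 members were called higher (MXD3 and MXD4), against 5.28% of all genes, and 1 was called lower (MXD1), against 6.31%. Between 100 and 50 µM, 0 members were called higher, where 2.25% of all genes were, and 1 was called lower (MYC), where 1.89% were. Before adjustment, edgeR's p between the doses was under 0.05 for 3 members (MYC, MXD3 and MNT), and DESeq2 called MYC alone there. The share of all genes at that unadjusted level is not given, so the 3 is not read as an excess. Without 100 µM replicate 3, edgeR also called MXD1, MXD3, MNT and MLXIP between the doses (adjusted p = 0.0177, 0.0173, 0.0205 and 0.00266). In that setting 1823 of all 12937 genes tested were called higher and 1738 lower. With 10 members, the shares at 100 µM lie near those of all genes. Both quercetin groups were set against the same 3 controls.

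**Figure D1:**
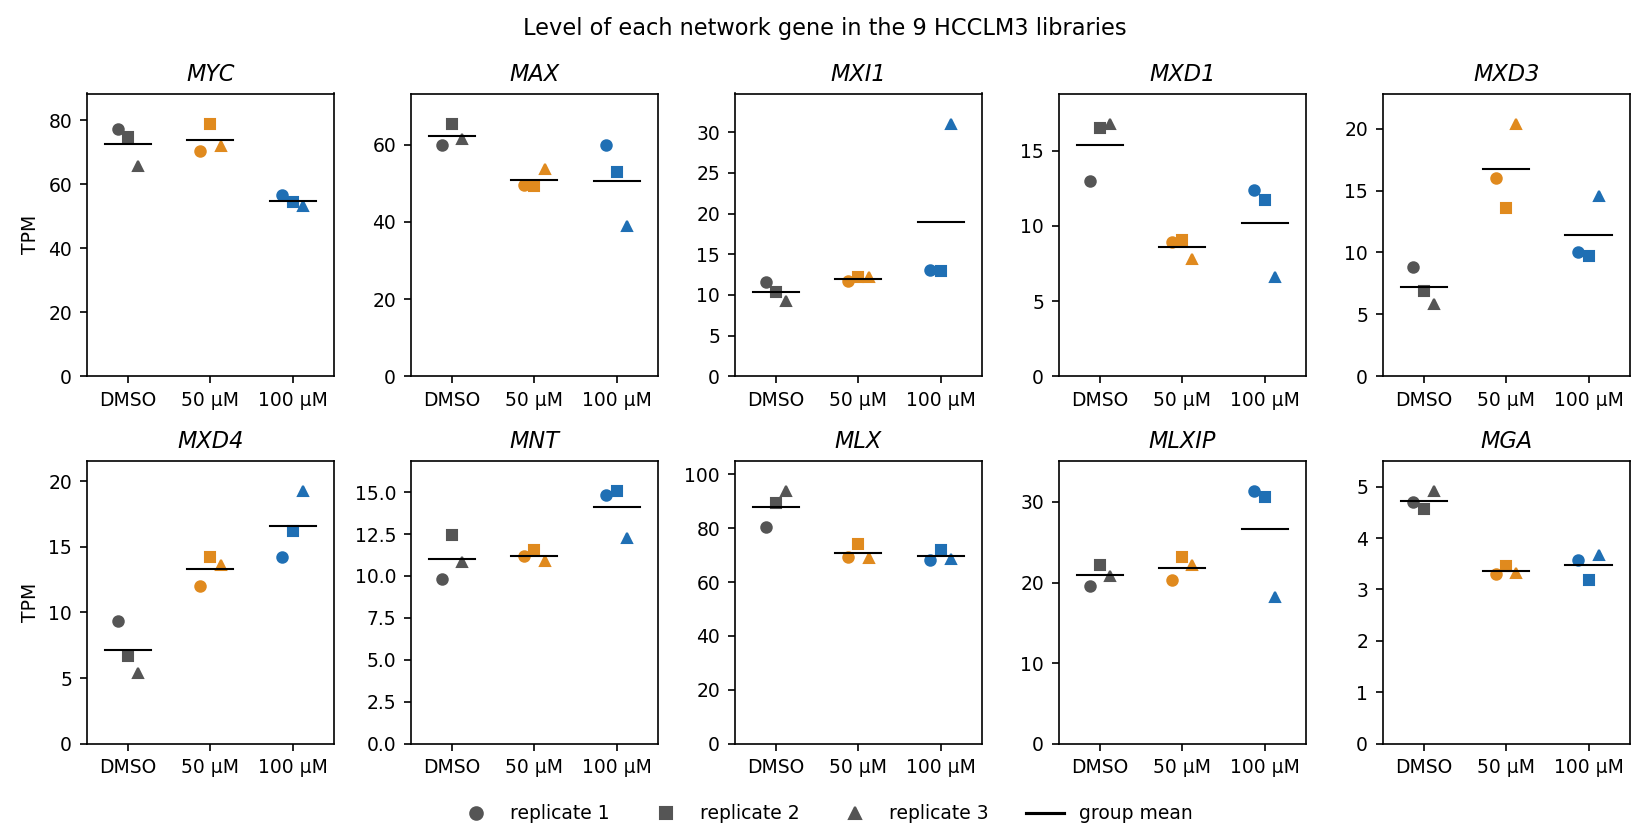
Level of each member in TPM (vertical axis, from 0) in the 3 libraries of DMSO, 50 µM and 100 µM quercetin, with marker shapes for replicates and a line for the group mean. MYC at 100 µM lay between 53.3 and 56.5 TPM, below the other 6 libraries, and the third library at 100 µM departed from the other two for MXI1 (31.1 against 13.0 and 12.9 TPM) and MLXIP (18.1 against 31.3 and 30.7 TPM).

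MAX, the shared partner of MYC, the MXD proteins, MNT and MGA, did not pass the test in any comparison. MAX (chr14:65006101-65102695) was at 60.1, 65.5 and 61.6 TPM with DMSO, at 49.6, 49.4 and 53.7 TPM at 50 µM and at 60.1, 53.0 and 38.9 TPM at 100 µM. The libraries at 50 µM lay below the controls. Those at 100 µM were below them too in TPM, the first by less than the values show after rounding, and overlapped them in counts scaled per library. The log2 fold changes were -0.26 ± 0.117 at 50 µM (edgeR, adjusted p = 0.160) and -0.27 ± 0.117 at 100 µM (edgeR, adjusted p = 0.125). Without 100 µM replicate 3 the change at 50 µM passed (edgeR, adjusted p = 0.0230). In the authors' deposited table MAX had a log2 fold change of -0.26 at 50 µM with a q-value of 0.0317 (DESeq2). MXD1, MXD3, MXD4, MLX (0.0301) and MGA (0.0372) also had q-values under 0.05 there. At 100 µM against DMSO, of the members only MYC and MXD4 did.

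MXD4 rose at both doses, and at 100 µM the call did not depend on any single library. It is a repressor partner of MAX that is typical of differentiated, non-dividing cells. MXD4 (chr4:2247432-2262109; the table gives the plus strand and RefSeq the minus strand) was at 9.37, 6.70 and 5.35 TPM with DMSO, at 12.0, 14.2 and 13.6 TPM at 50 µM and at 14.2, 16.2 and 19.2 TPM at 100 µM. All 6 quercetin libraries lay above all 3 controls. At 100 µM the log2 fold change was 1.29 ± 0.200, 2.45-fold higher (edgeR, adjusted p = 0.00297), and it passed the test in each of the 9 omissions of a single library, with adjusted p between 0.00142 and 0.0189. At 50 µM it was 0.95 ± 0.200, 1.94-fold higher (edgeR, adjusted p = 0.0196). That call was lost without control replicate 2 or 3 or without any library at 50 µM, with a log2 fold change of 0.80 to 1.02 and edgeR's adjusted p between 0.0692 and 0.0982. The difference between the doses, 0.34 ± 0.193, did not pass (edgeR, adjusted p = 0.347).

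MXD3, the MXD gene linked to the S phase of dividing cells, rose at 50 µM. MXD3 (chr5:177305499-177312752) was at 8.83, 6.92 and 5.83 TPM with DMSO, at 16.0, 13.6 and 20.4 TPM at 50 µM and at 10.0, 9.67 and 14.6 TPM at 100 µM. The libraries of each quercetin group lay above the controls and overlapped each other. At 50 µM the log2 fold change was 1.21 ± 0.238, 2.32-fold higher (edgeR, adjusted p = 0.0175), and 0.69 ± 0.240 at 100 µM (edgeR, adjusted p = 0.0693). The difference of 100 from 50 µM, -0.52 ± 0.231, did not pass with all libraries (edgeR, adjusted p = 0.220). It passed without 100 µM replicate 3 (edgeR, adjusted p = 0.0173) and in no other omission, with log2 fold changes of -0.77 to -0.34 over the omissions. The call at 50 µM was lost without control replicate 2 or 3 or replicate 1 or 3 at 50 µM, with a log2 fold change of 1.02 to 1.26 and edgeR's adjusted p between 0.0678 and 0.0886. The gene had 62 to 230 counts per library. It shares 1451 bases with PRELID1 on the opposite strand, which averaged 249 TPM with DMSO, 224 TPM at 50 µM and 198 TPM at 100 µM. Whether counting used the strand is not stated in the labels, so reads from the shared stretch cannot be assigned to either gene with certainty. Other members also share bases with genes on the opposite strand. Among them are MAX with FNTB (56550 bases), MXD1 with ASPRV1 (10229 bases) and MLX with PSMC3IP (894 bases). FNTB, ASPRV1 and PSMC3IP averaged 5.42, 0.210 and 23.2 TPM with DMSO.

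MXD1, the founding MXD repressor and an antagonist of MYC in differentiating cells, fell at 50 µM. MXD1 (chr2:69915109-69942945) was at 13.0, 16.5 and 16.8 TPM with DMSO, at 8.91, 9.03 and 7.80 TPM at 50 µM and at 12.4, 11.7 and 6.62 TPM at 100 µM. All 6 quercetin libraries lay below the controls, by little for replicates 1 and 2 at 100 µM. At 50 µM the log2 fold change was -0.79 ± 0.190, 1.73-fold lower (edgeR, adjusted p = 0.0298), and -0.54 ± 0.189 at 100 µM (edgeR, adjusted p = 0.0696). Without control replicate 2 or 3, or without any library at 50 µM, edgeR's adjusted p at 50 µM was between 0.0909 and 0.133 with a log2 fold change of -0.82 to -0.70. Without control replicate 1 the change at 100 µM was -0.66 (edgeR, adjusted p = 0.0423).

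MXI1 is an MXD repressor that is also a target of hypoxia-inducible factors, and its level at 100 µM was set by a single library. MXI1 (chr10:110207605-110287365) was at 11.6, 10.4 and 9.25 TPM with DMSO, at 11.7, 12.2 and 12.2 TPM at 50 µM and at 13.0, 12.9 and 31.1 TPM at 100 µM. Replicate 3 at 100 µM was far above every other library. The log2 fold change was 0.97 ± 0.330 at 100 µM (edgeR, adjusted p = 0.0651) and 0.27 ± 0.332 at 50 µM (edgeR, adjusted p = 0.588). Without that library they were 0.35 (edgeR, adjusted p = 0.0256) and 0.28 (edgeR, adjusted p = 0.0353), with smaller standard errors of 0.104 and 0.0940. Without replicate 1 or 2 at 100 µM the change was 1.20 or 1.19 (edgeR, adjusted p = 0.0322 and 0.0391).

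Added over the 4 MXD genes, the level was 40.2 ± 2.78 TPM with DMSO, 50.5 ± 2.96 TPM at 50 µM and 57.2 ± 12.4 TPM at 100 µM (SD, n = 3 each). The last value includes 71.5 TPM in replicate 3, against 49.6 and 50.5 TPM in the other two. MXD1 held 38.7% of the sum with DMSO, 17.1% at 50 µM and 19.1% at 100 µM, and MXD4 held 17.6%, 26.3% and 29.2%. MYC over this sum was 1.80, 1.85 and 1.76 in the DMSO libraries, 1.45, 1.61 and 1.33 at 50 µM and 1.14, 1.07 and 0.746 at 100 µM. The 3 groups did not overlap in this ratio, which is a description of TPM values and was not tested.

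**Figure D2:**
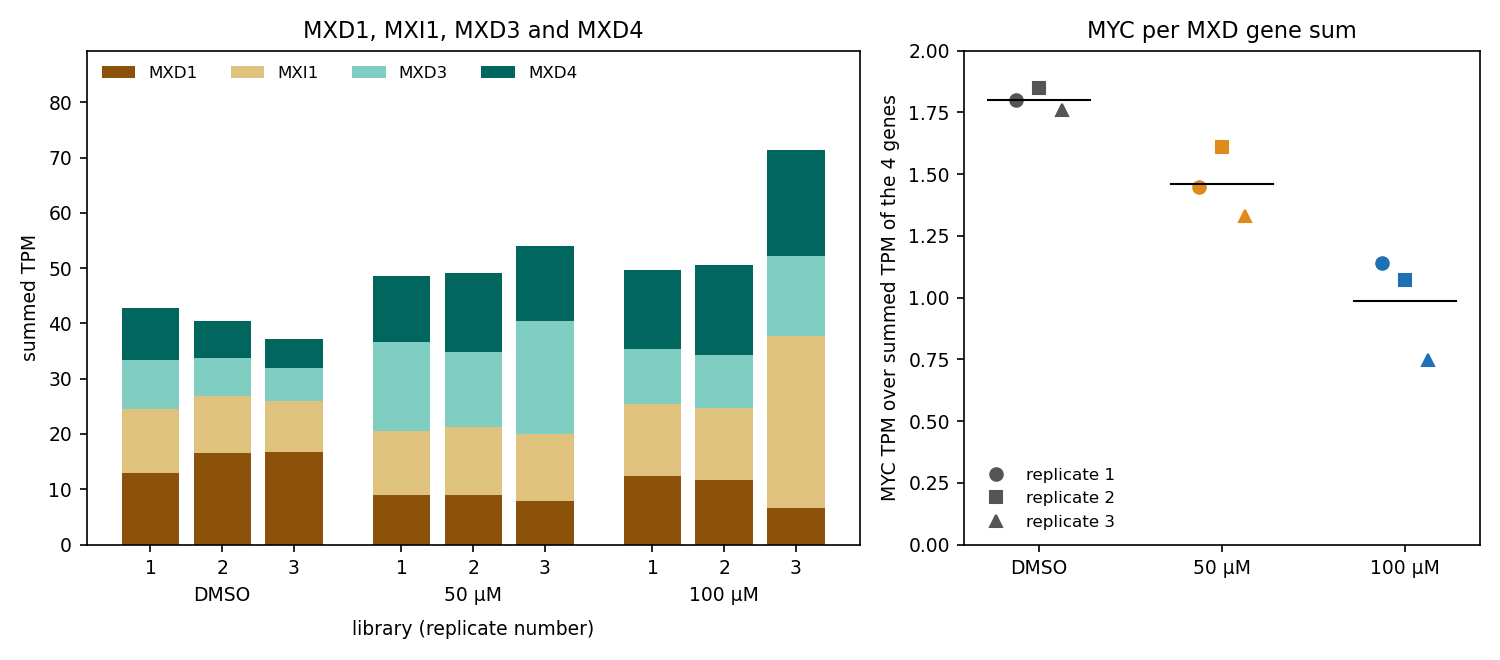
Left, summed TPM of MXD1, MXI1, MXD3 and MXD4 in each library, grouped by DMSO, 50 µM and 100 µM quercetin, with a colour for each gene. Right, MYC TPM divided by that sum, with marker shapes for replicates and lines for group means of 1.80 (DMSO), 1.46 (50 µM) and 0.986 (100 µM).

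MNT, a broadly expressed repressor partner of MAX that balances MYC in dividing cells, was called higher at 100 µM. MNT (chr17:2384073-2401104; the table gives the plus strand and RefSeq the minus strand) was at 9.82, 12.4 and 10.9 TPM with DMSO, at 11.2, 11.5 and 10.9 TPM at 50 µM and at 14.8, 15.1 and 12.3 TPM at 100 µM. In TPM, replicate 3 at 100 µM fell within the range of the controls. In CPM (counts scaled to a library's TMM-adjusted total, with no correction for length), the libraries at 100 µM averaged 33.8 ± 1.98 and the controls 26.6 ± 3.04 (SD, n = 3 each), with no overlap. The log2 fold change was 0.35 ± 0.0995, 1.27-fold higher (edgeR, adjusted p = 0.0367). It passed in 2 of the 9 omissions of a single library, those of control replicate 2 and of 100 µM replicate 3. Without control replicate 1 it was 0.27 (edgeR, adjusted p = 0.0682), without control replicate 3 it was 0.36 (edgeR, adjusted p = 0.105), and without any single one of the other 5 libraries edgeR's adjusted p was between 0.0629 and 0.0877. It was also lost with no filter on low counts (edgeR, adjusted p = 0.0537), with only the libraries of those groups (0.105) and with limma on log2(TPM + 1) (0.0711). With the replicate number as a block edgeR's adjusted p was 0.0611. In the authors' deposited table the q-value of MNT at 100 µM was 0.113 (DESeq2). At 50 µM the log2 fold change was 0.04 ± 0.0998 (edgeR, adjusted p = 0.813).

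MLX was the most abundant member with DMSO, and MLXIP followed MAX in the order of levels. MLX (chr17:42567099-42573203) was at 80.6, 89.2 and 93.8 TPM with DMSO, at 69.3, 74.0 and 69.1 TPM at 50 µM and at 68.0, 72.0 and 68.8 TPM at 100 µM. All 6 quercetin libraries lay below the controls. The log2 fold changes of -0.26 ± 0.0871 at 50 µM (edgeR, adjusted p = 0.0807) and -0.27 ± 0.0871 at 100 µM (edgeR, adjusted p = 0.0524) did not pass. Without control replicate 1 or without 100 µM replicate 3 both passed.

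MLXIP, for which the table gives no chromosome position, was at 19.5, 22.2 and 20.9 TPM with DMSO, at 20.3, 23.1 and 22.1 TPM at 50 µM and at 31.3, 30.7 and 18.1 TPM at 100 µM. In TPM, replicates 1 and 2 at 100 µM were above every other library and replicate 3 was below every other one. In CPM, replicate 3 at 100 µM was at 75.3, above control replicate 1 at 70.8. At 100 µM the log2 fold change was 0.41 ± 0.154 (edgeR, adjusted p = 0.0844). Without replicate 3 at 100 µM it was 0.60 ± 0.0779 (edgeR, adjusted p = 0.000298).

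MGA, the largest network protein, joins MAX to a Polycomb complex that silences germline genes. MGA (chr15:41621225-41773080) was at 4.70, 4.56 and 4.91 TPM with DMSO, at 3.31, 3.46 and 3.32 TPM at 50 µM and at 3.58, 3.18 and 3.67 TPM at 100 µM. All 6 quercetin libraries lay below the controls. The log2 fold change was -0.32 ± 0.114 at 50 µM (edgeR, adjusted p = 0.0924) and -0.35 ± 0.114 at 100 µM (edgeR, adjusted p = 0.0569). Without 100 µM replicate 3 both changes passed, with adjusted p of 0.0151 and 0.00399 from edgeR.

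**Figure D3:**
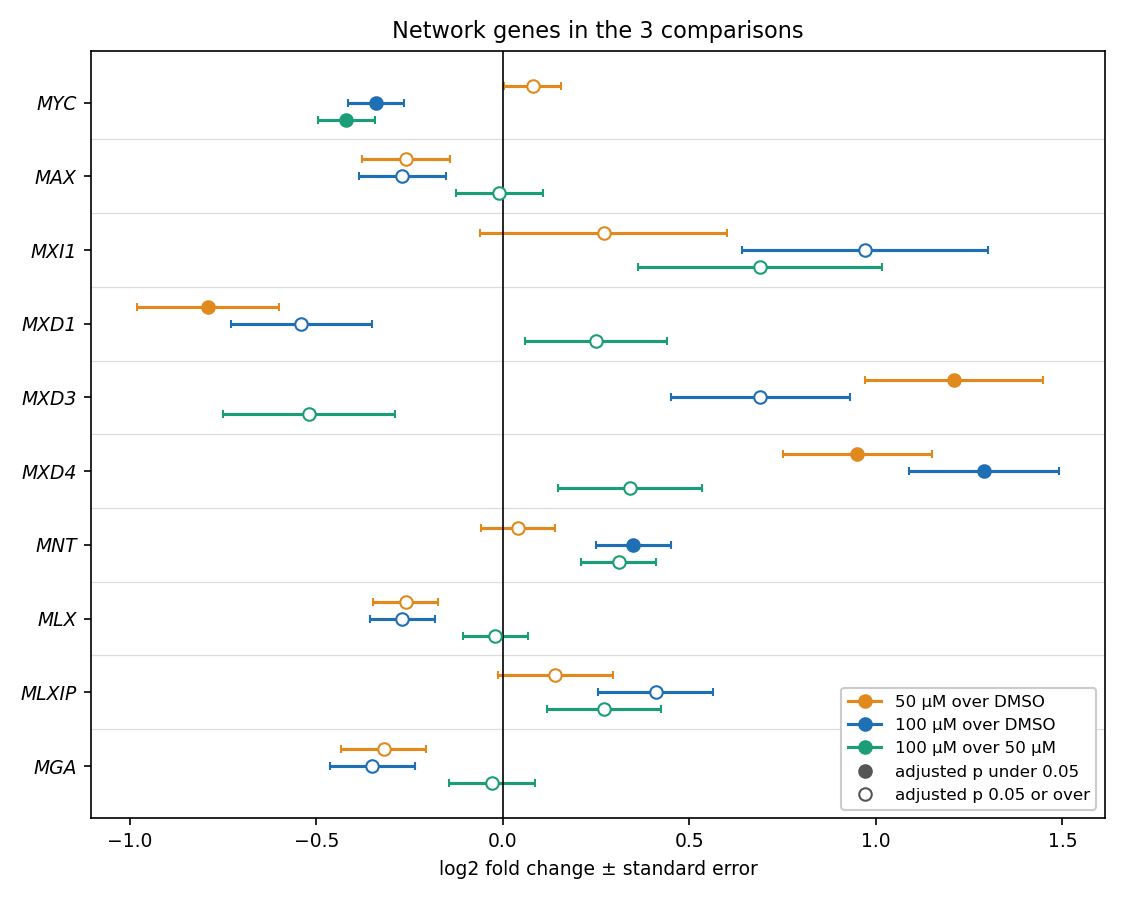
Log2 fold change (horizontal axis) with its standard error for each member in 3 comparisons, from edgeR. Filled points passed an adjusted p of 0.05. They are MXD1, MXD3 and MXD4 at 50 µM over DMSO, MYC, MXD4 and MNT at 100 µM over DMSO, and MYC at 100 over 50 µM.

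In TPM, the order of the members with DMSO was MLX, MYC, MAX, MLXIP, MXD1, MNT, MXI1, MXD3, MXD4 and MGA, from 87.9 ± 6.67 TPM for MLX to 4.72 ± 0.176 TPM for MGA (SD, n = 3). The ranges of MNT and MXI1 overlapped, as did those of MXD3 and MXD4, and all other neighbours were apart. At 50 µM MYC (73.7 ± 4.51 TPM) and MLX (70.8 ± 2.80 TPM) overlapped, and MXD1 stood at 8.58 ± 0.678 TPM, above MGA alone. At 100 µM MYC (54.7 ± 1.64 TPM) overlapped MAX (50.7 ± 10.8 TPM), and each neighbouring pair from MLXIP down to MXD1 overlapped. MYC per MAX was 1.16 ± 0.110 with DMSO, 1.45 ± 0.132 at 50 µM and 1.11 ± 0.227 at 100 µM (SD, n = 3 each). Summed over the 10 members, the level was 299.5 ± 8.35 TPM with DMSO, 282 ± 8.66 TPM at 50 µM and 276 ± 8.96 TPM at 100 µM.

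Without control replicate 1 and 100 µM replicate 3 together, edgeR called 10 of the 10 members at 100 µM against DMSO (5 higher, 5 lower), 7 at 50 µM against DMSO and 5 between the doses. The counts of all genes called grew as well, out of 12896 tested. They were 6272 at 100 µM, 7398 at 50 µM and 6105 between the doses, where all libraries gave 2692, 1488 and 532. The 2 libraries were picked for standing apart in these same data, so these calls are not independent of that choice. MLX and MGA passed at both doses in that setting, as did MAX and MXI1.

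Genes that MYC activates fell far more often than they rose at 100 µM. Of 50 tested genes of a list of well studied (canonical) MYC targets, 24 fell and 1 rose at 100 µM against DMSO, with a median log2 fold change of -0.35. Of all 12832 genes 10.3% fell and 10.7% rose, with a median of 0.00087. At 50 µM 4 fell (8.0%) and 2 rose (4.00%), with a median of -0.10, near the 6.31% and 5.28% of all genes, whose median was 0.0033. Of the 58 tested genes that the authors' table assigns to the hallmark set MYC targets V2, 28 fell and 0 rose at 100 µM (median -0.33), and 3 fell (5.17%) and 1 rose (1.72%) at 50 µM (median -0.07). For the 0, edgeR's unadjusted p was under 0.05 for 0 higher genes too, and DESeq2 called 0. This set and V1 below each hold MYC itself, which is counted among the genes that fell at 100 µM. Of the 200 genes of the set V1, 64 fell (32.0%) and 2 rose (1.00%) at 100 µM (median -0.21), and 9 fell (4.5%) and 15 rose (7.5%) at 50 µM, the last close to the shares of all genes. Between 100 and 50 µM, 8 of the 50 well studied targets fell (16.0%) and 1 rose (2.00%), where 1.89% of all genes fell and 2.25% rose. The lists overlap, with 21 of the well studied targets in V1 and 17 in V2. The well studied list was chosen with earlier results of these data known, so its shares are not independent of them.

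The well studied targets fell more often than they rose at 100 µM with and without the libraries that stood apart. Without both of them, 37 of the 50 fell and 3 rose at 100 µM against DMSO, while of all 12896 genes tested in that setting 3147 fell and 3125 rose. At 50 µM the counts in that setting were 23 lower and 9 higher, with a median of -0.11, where all libraries gave 4 lower and 2 higher, and all genes gave 3721 lower and 3677 higher. Without control replicate 1 alone they were 12 lower and 3 higher at 50 µM, where 1437 of all 12970 genes tested fell and 1405 rose. Without 100 µM replicate 3 alone they were 20 lower and 7 higher, where 2357 of all 12937 genes fell and 2382 rose. Averaged over the 50 genes, the log2 level relative to the DMSO mean was -0.30, -0.30 and -0.50 in the libraries at 100 µM, and -0.10, -0.14 and -0.13 at 50 µM.

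The targets named by rule that fell at 100 µM are the top 2 of each list among genes with a mean of at least 5 CPM. Below that level DUSP2, a phosphatase chosen after its values were seen, fell by 1.07 ± 0.246 (edgeR, adjusted p = 0.0159). SLC7A5, an importer of large neutral amino acids, was at 359, 382 and 152 CPM at 100 µM, against 402, 748 and 689 with DMSO (log2 fold change -1.04 ± 0.324; edgeR, adjusted p = 0.0475). That call held only without control replicate 1 or 100 µM replicate 2. Without any single one of the other 7 libraries edgeR's adjusted p was between 0.0536 and 0.163, and without 100 µM replicate 3 the log2 fold change was -0.72. RRS1, a ribosome assembly factor, had a log2 fold change of -0.92 ± 0.173 (edgeR, adjusted p = 0.00688). CTPS1, which makes CTP, fell by 0.93 ± 0.186 (edgeR, adjusted p = 0.00898). UTP20, needed to process ribosomal RNA, fell by 0.83 ± 0.103 (edgeR, adjusted p = 0.00116), and it also fell at 50 µM, by 0.70 ± 0.102 (edgeR, adjusted p = 0.00696). IARS1 and AIMP2, a tRNA synthetase and a scaffold of the synthetase complex, fell by 0.73 ± 0.122 and 0.70 ± 0.123 (edgeR, adjusted p = 0.00408 and 0.00520). The falls of RRS1, CTPS1, UTP20, IARS1 and AIMP2 at 100 µM passed in 9 of 9 omissions of a single library, and that of UTP20 at 50 µM in 8 of 9 (edgeR, adjusted p = 0.0544 without 50 µM replicate 3).

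The MYC targets that rose at 100 µM in these 3 lists were the glycolytic genes LDHA and PGK1. LDHA, which turns pyruvate into lactate, was at 2256, 2202 and 2337 CPM at 100 µM, against 1075, 1175 and 1304 with DMSO (log2 fold change 0.93 ± 0.100; edgeR, adjusted p = 0.000648). PGK1, an ATP-making enzyme of glycolysis, had a log2 fold change of 1.19 ± 0.110 (edgeR, adjusted p = 0.000339). Both also rose at 50 µM, by 0.45 ± 0.0994 and 0.51 ± 0.109 (edgeR, adjusted p = 0.0234 and 0.0214). At 100 µM both passed in 9 of 9 omissions. At 50 µM both were lost without control replicate 2 or 3 or without any library at 50 µM, with edgeR's adjusted p up to 0.108 for LDHA and 0.101 for PGK1. PGK1 is on the hypoxia list below as well.

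**Figure D4:**
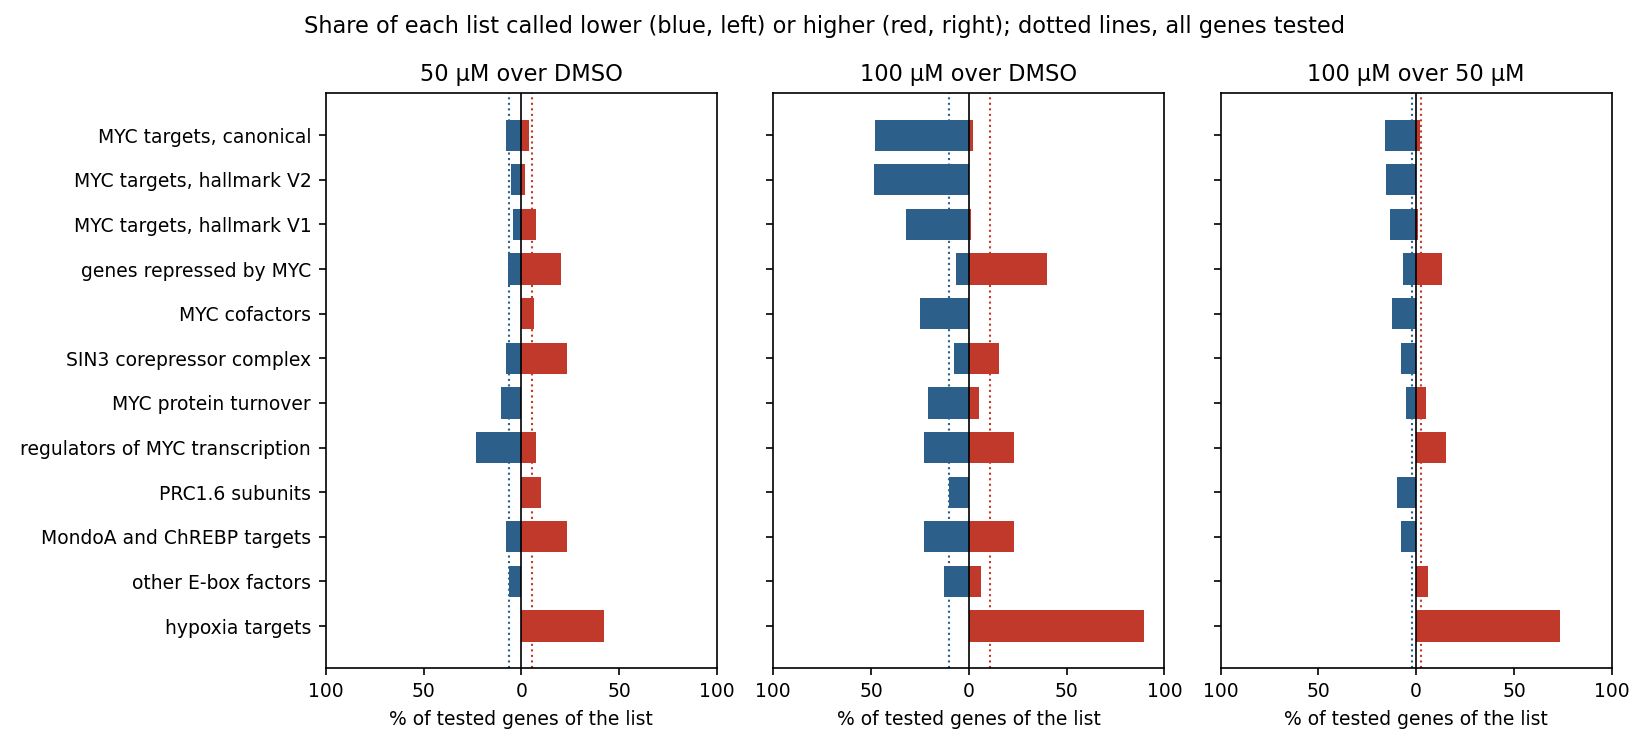
Share of the tested genes of 12 lists called lower (left, blue) or higher (right, red) by edgeR at an adjusted p of 0.05, in 3 comparisons, with dotted lines for the share of all genes tested. At 100 µM over DMSO, 48.0% of the well studied MYC targets were lower and 89.5% of the hypoxia targets were higher.

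E-boxes were common in the promoters of these targets. CACGTG was found in the RefSeq windows of 21 of 42 matched genes of the well studied list (50.0%), 25 of 47 of V2 (53.2%) and 31 of 171 of V1 (18.1%), against 12.6% of tested genes. The share of genes that fell at 100 µM was 9 of 21 with the motif and 11 of 21 without it in the well studied list. In V2 it was 14 of 25 with it and 11 of 22 without it, and in V1 13 of 31 with it and 42 of 140 without it. Windows of 26 bases around the motif are given for named targets, with the E-box in capitals. Binding of MYC or of the MXD proteins at these sites was not measured. LDHA holds 2 of them. They lie at chr11:18394368-18394393 and chr11:18394466-18394491 (LDHA), chr16:87869622-87869647 (SLC7A5, minus strand), chr12:101280085-101280110 (UTP20), chr9:92293868-92293893 (IARS1, minus strand) and chr7:6009480-6009505 (AIMP2).
LDHA, distal site: actcccagcgCACGTGgagcagtctg
LDHA, proximal site: gcccgactcaCACGTGggttcccgca
SLC7A5: ccggacgacgCACGTGctccgagctg
UTP20: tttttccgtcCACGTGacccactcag
IARS1: gttcgttttcCACGTGgaggcgcaaa
AIMP2: gggcgctggcCACGTGcaggtaggag

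Genes that MYC represses, many of them through the factor ZBTB17 (MIZ1), were tested as a list of 15. Of these, 6 rose (40.0%) and 1 fell (6.67%) at 100 µM (median 0.27), where 10.7% of all genes rose and 10.3% fell. At 50 µM 3 rose (20.0%) and 1 fell (6.67%), with a median of 0.02, where 5.28% of all genes rose and 6.31% fell. One of the genes that rose at 100 µM is ZBTB17 itself (0.48), the factor and not a gene repressed through it, named after its values were seen. Those at 50 µM were NDRG1, CDKN2C (0.47) and ITGB1 (0.33), with ITGA6 lower (-0.53), chosen after their values were seen except for NDRG1. NDRG1, a growth suppressor that is also a hypoxia target, was at 1452, 1488 and 1933 CPM at 100 µM, against 248, 240.2 and 236 with DMSO (log2 fold change 2.75 ± 0.131; edgeR, adjusted p = 1.38e-05). GADD45B, a stress sensor, rose by 1.23 ± 0.211 (edgeR, adjusted p = 0.00460). CEBPA, a factor of hepatocyte differentiation, was the one that fell, at 39.1, 38.3 and 40.0 CPM at 100 µM, against 76.6, 79.2 and 73.6 with DMSO (log2 fold change -0.97 ± 0.0722; edgeR, adjusted p = 0.000104). These 3 calls at 100 µM passed in 9 of 9 omissions of a library.

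Among the other genes of the network, MYCBP2, a very large ubiquitin ligase first found as a MYC binder, fell by 0.77 ± 0.150 at 100 µM and by 0.74 ± 0.150 at 50 µM (edgeR, adjusted p = 0.00805 and 0.0184). It passed in 9 of 9 omissions at 100 µM, and at 50 µM it was lost without control replicate 2 or 3 or any library at 50 µM (edgeR, adjusted p up to 0.0976). MLXIPL (ChREBP), the liver paralog of MLXIP, was called higher at 100 µM at a very low level. It was at 1.51, 1.95 and 2.27 CPM at 100 µM, against 1.19, 0.942 and 0.559 with DMSO (log2 fold change 1.08 ± 0.334; edgeR, adjusted p = 0.0467). The call held only without control replicate 1 or 100 µM replicate 1, and without the others singly edgeR's adjusted p was between 0.0531 and 0.155. The MYC paralogs MYCN and MYCL did not exceed 1.07 CPM in any library. MYCBP, a small MYC-binding protein, averaged 23.4 ± 4.83 CPM at 100 µM and 23.2 ± 7.98 with DMSO (SD, n = 3 each). It was at 33.5 ± 2.20 at 50 µM and did not pass in any comparison.

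Of 16 MYC cofactors, 4 fell (25.0%) and 0 rose at 100 µM by edgeR's adjusted p, where 10.3% of all genes fell and 10.7% rose. EdgeR's unadjusted p was under 0.05 for 0 higher genes there, and DESeq2 called 0 higher. RUVBL1, an ATPase of the TIP60 and INO80 complexes, fell by 0.45 ± 0.107 at 100 µM (edgeR, adjusted p = 0.0176), and WDR5, which recruits MYC to chromatin, fell by 0.43 ± 0.101 (edgeR, adjusted p = 0.0168). The others, chosen after their values were seen, were SKP2 (-0.42) and the acetyltransferase KAT2A (-0.40). At 50 µM 1 of the 16 rose (6.25%), where 5.28% of all genes did. It was ACTL6A, a chromatin remodelling subunit (0.29), also chosen after its values were seen. RUVBL1 was lost without control replicate 3 or 100 µM replicate 1 or 2 (edgeR, adjusted p up to 0.0513), and WDR5 without control replicate 2 or 3 (edgeR, adjusted p = 0.0817 and 0.0792).

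Of 13 genes of the SIN3 corepressor complex, through which the MXD proteins and MNT repress, 2 rose (15.4%) and 1 fell (7.69%) at 100 µM, near the 10.7% and 10.3% of all genes. SAP30 and the deacetylase HDAC1 rose, each with a log2 fold change of 0.32 (edgeR, adjusted p = 0.0408 and 0.0217). SAP130 fell by 0.53 ± 0.130 (edgeR, adjusted p = 0.0204). The same 3 genes were called in the same directions at 50 µM, with log2 fold changes of 0.52, 0.31 and -0.60. There the deacetylase HDAC2 also rose (0.37), a gene chosen after its values were seen. At 50 µM 3 of the 13 rose (23.1%) and 1 fell (7.69%), where 5.28% of all genes rose and 6.31% fell. At 100 µM each of the 3 calls was lost without control replicate 2 or without control replicate 3, with edgeR's adjusted p between 0.0707 and 0.147. Those of SAP30 and HDAC1 were also lost without 100 µM replicate 1 or 2 (edgeR, adjusted p between 0.0503 and 0.0968), and that of SAP30 without 50 µM replicate 2 or 3 (edgeR, adjusted p = 0.0672 and 0.0557). At 50 µM the 3 calls were lost without control replicate 2 or 3 or any library at 50 µM, with edgeR's adjusted p up to 0.0811 for SAP30, 0.150 for HDAC1 and 0.108 for SAP130. HDAC1 was also lost there without 100 µM replicate 1 (edgeR, adjusted p = 0.0507).

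Of the 10 other subunits of the MGA Polycomb complex, 1 fell at 100 µM (10.0%, where 10.3% of all genes did) and 1 rose at 50 µM (10.0%, where 5.28% did). The first was PCGF6, the subunit that defines the complex, with a log2 fold change of -0.32 ± 0.0875 (edgeR, adjusted p = 0.0291). The one at 50 µM was CBX3, a heterochromatin protein (0.38), chosen after its values were seen. PCGF6 passed only without control replicate 1 or 100 µM replicate 3, and without the others singly edgeR's adjusted p was between 0.0530 and 0.107. Of 14 germline genes silenced by that complex, 5 were tested. At 50 µM 1 of the 5 rose (20.0%), where 5.28% of all genes did. STAG3, a meiotic cohesin subunit, rose by 0.50 ± 0.116 at 50 µM (edgeR, adjusted p = 0.0256) and had a log2 fold change of 0.28 ± 0.116 at 100 µM (edgeR, adjusted p = 0.111). At 100 µM edgeR and DESeq2 called 0 of the 5, and edgeR's unadjusted p was under 0.05 for 1. The call of STAG3 at 50 µM was lost without control replicate 2 or 3 or any library at 50 µM (edgeR, adjusted p up to 0.122).

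Of 19 genes for MYC protein turnover, 4 fell (21.1%) and 1 rose (5.26%) at 100 µM, where 10.3% of all genes fell and 10.7% rose. At 50 µM 2 fell (10.5%), where 6.31% of all genes did. FBXO32, a ubiquitin ligase subunit reported to target MYC, was at 58.7, 55.7 and 52.6 CPM at 100 µM, against 29.6, 38.4 and 34.0 with DMSO (log2 fold change 0.71 ± 0.104; edgeR, adjusted p = 0.00237). SKP2, a ligase subunit that both degrades and activates MYC, fell by 0.42 ± 0.0954 (edgeR, adjusted p = 0.0145). CIP2A, which shields MYC from the phosphatase PP2A, fell by 0.43 ± 0.101 (edgeR, adjusted p = 0.0170). USP28 and USP7, deubiquitinases chosen after their values were seen, were the others that fell, with log2 fold changes of -0.37 and -0.32 at 100 µM and of -0.35 and -0.32 at 50 µM. FBXO32 passed in 9 of 9 omissions. SKP2 and CIP2A were lost without control replicate 2 or 3, with edgeR's adjusted p of 0.0506 and 0.0551 for SKP2 and of 0.0822 and 0.0762 for CIP2A.

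Of 13 regulators of MYC transcription, 3 rose and 3 fell at 100 µM (23.1% each), where 10.7% of all genes rose and 10.3% fell. TCF7L2, the Wnt effector, rose by 0.44 ± 0.103 and SMAD3 by 0.34 ± 0.0775 (edgeR, adjusted p = 0.0161 and 0.0158). FUBP1, which binds a single-stranded element upstream of MYC, fell by 0.53 ± 0.0812 (edgeR, adjusted p = 0.00277). CTCF, an insulator protein, fell by 0.48 ± 0.148 (edgeR, adjusted p = 0.0467). The others at 100 µM, E2F4 (-0.29) and CTNNB1 (0.26), were chosen after their values were seen. At 50 µM 3 fell (23.1%) and 1 rose (7.69%), where 6.31% of all genes fell and 5.28% rose. Those that fell were FUBP1 (-0.31), KLF4 (-0.44) and PRDM1 (-1.76), and CTNNB1 (0.27) rose. All but FUBP1 were chosen after their values were seen. PRDM1 averaged 4.42 CPM over all libraries, under the minimum level for naming, and 7.06 ± 3.41 CPM with DMSO (SD, n = 3). FUBP1 passed in 9 of 9 omissions at 100 µM. At 50 µM it passed in 2 of 9, those of 100 µM replicates 2 and 3, and edgeR's adjusted p was between 0.0540 and 0.158 in the others. TCF7L2 was lost without control replicate 2 or 3 (edgeR, adjusted p = 0.0622 and 0.0663) and SMAD3 without control replicate 3 (edgeR, adjusted p = 0.0732). CTCF passed only without control replicate 1 or 100 µM replicate 1 or 3, and without the others singly edgeR's adjusted p was between 0.0537 and 0.175.

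Of 13 tested targets of MLX with MLXIP or MLXIPL, 3 rose and 3 fell at 100 µM (23.1% each; median 0.10), where 10.7% of all genes rose and 10.3% fell. At 50 µM 3 rose (23.1%) and 1 fell (7.69%), where 5.28% and 6.31% of all genes did. SCD and FASN, enzymes of fatty acid synthesis that are also targets of sterol-regulated factors, rose by 1.61 ± 0.157 and 1.03 ± 0.149 at 100 µM (edgeR, adjusted p = 0.000437 and 0.00233). GPD1 and ME1, enzymes that use and make reducing equivalents, fell by 0.77 ± 0.200 and 0.34 ± 0.0782 (edgeR, adjusted p = 0.0254 and 0.0147). ACACA, which starts fatty acid synthesis, rose (0.52) and KLF10 fell (-0.28) at 100 µM, and both were called in the same directions at 50 µM (0.72 and -0.56). These were chosen after their values were seen. SCD and FASN passed at 100 µM in 9 of 9 omissions. GPD1 was lost without control replicate 2 or 3 or 100 µM replicate 1 or 2 (edgeR, adjusted p up to 0.0855), and ME1 without control replicate 3 (edgeR, adjusted p = 0.0554). TXNIP, the best known target of MondoA and chosen here after its values were seen, was at 25.7, 23.7 and 284 CPM at 100 µM, against 45.9, 12.4 and 11.5 with DMSO. It was highest in the 2 libraries that stood apart, and it was not called (edgeR, adjusted p = 0.112). Of 16 other factors that bind E-boxes, 2 fell (12.5%) and 1 rose (6.25%) at 100 µM, near the 10.3% and 10.7% of all genes. BHLHE40, a repressor and hypoxia target, rose by 0.53 ± 0.0774, and CLOCK, a circadian activator, fell by 0.67 ± 0.117 (edgeR, adjusted p = 0.00235 and 0.00503). The other that fell was MITF (-1.70), under the minimum level for naming and chosen after its values were seen.

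Targets of hypoxia-inducible factors, to which MXI1 belongs, moved with the quercetin dose and with 100 µM replicate 3. Of 19 tested, 17 rose at 100 µM (89.5%; median 1.32), where 10.7% of all genes did, and 8 rose at 50 µM (42.1%; median 0.42), where 5.28% did. The list was chosen with earlier results of these data known, so these shares are not independent of them. None fell at either dose by edgeR's adjusted p, DESeq2 called 0 lower, and edgeR's unadjusted p was under 0.05 for 0 lower genes at 100 µM and for 2 at 50 µM. At 50 µM edgeR called 2 lower and 7 higher without control replicate 1, where 1437 of all 12970 genes tested fell and 1405 rose. Without both libraries that stood apart it called 3 lower and 15 higher, where 3721 of all 12896 genes fell and 3677 rose. CA9, an enzyme that hydrates carbon dioxide outside the cell, was at 53.1, 63.9 and 212 CPM at 100 µM, at 24.5, 20.2 and 23.0 at 50 µM and at 4.20, 0.754 and 0.864 with DMSO. ANGPTL4, a secreted lipase inhibitor, was at 43.3, 51.8 and 142 at 100 µM, against 7.76, 10.1 and 9.15 with DMSO (log2 fold change 3.14 ± 0.415; edgeR, adjusted p = 0.00154). The mean log2 level of the 19 genes relative to DMSO was 1.47, 1.51 and 2.07 in the 3 libraries at 100 µM. MXI1 and the hypoxia genes were thus highest in the same library, and the part of one in the other was not tested.

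**Figure D5:**
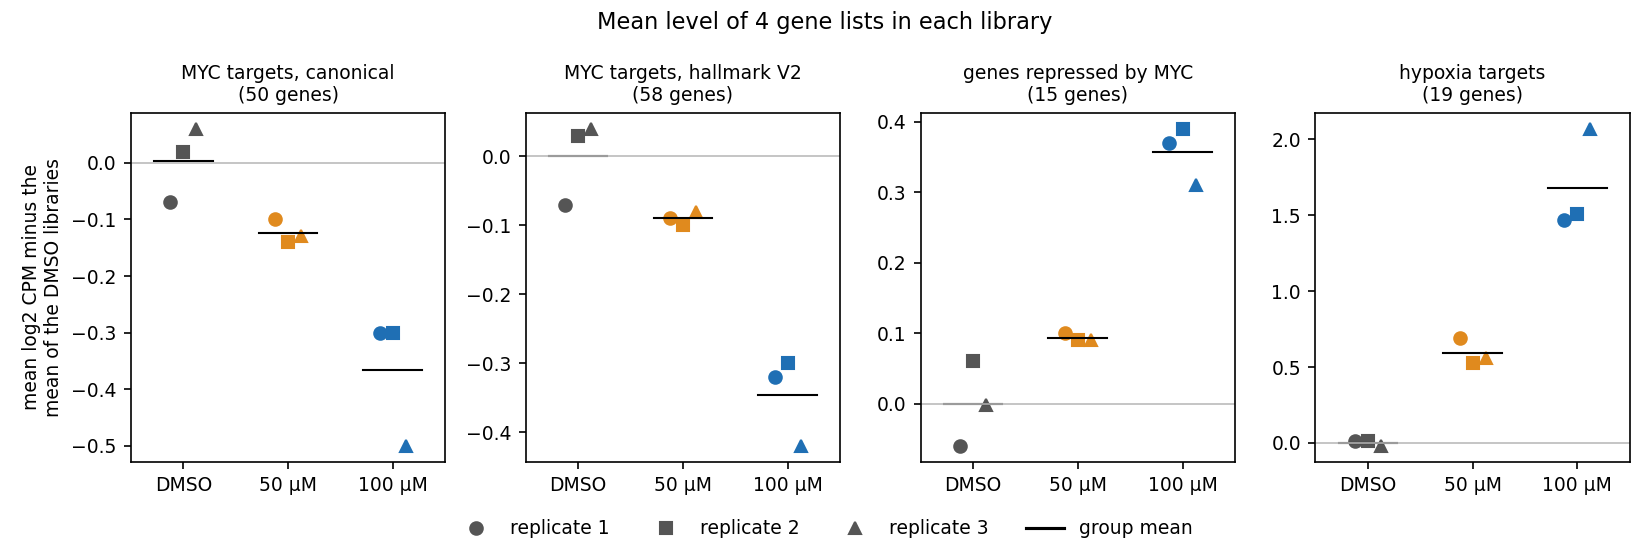
Mean log2 CPM of the tested genes of 4 lists in each library, minus the mean of the DMSO libraries, with marker shapes for replicates and lines for group means. The well studied MYC targets lay at -0.30, -0.30 and -0.50 at 100 µM and the hypoxia targets at 1.47, 1.51 and 2.07, and the vertical scales differ between panels.

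The genes whose pattern over the 9 libraries was most like that of a member were found among 10470 genes with a mean of at least 5 CPM. For MXD4 they included GNE (Pearson r = 0.993) and ALOX5 (0.992). For MYC they were ALDH5A1 (0.977), PYROXD1 (0.975) and NDUFAF4 (0.968), and for MNT they were PLXNA3 (0.971), BTN2A1 (0.968) and YEATS2 (0.961). These values describe 9 libraries in 3 groups, which share their group differences and scaling, and carry no p.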

How the data were processed

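Messenger RNA of HCCLM3 cells was bound to oligo(dT) beads, and libraries were treated with duplex-specific nuclease, per the labels' protocols, a step that can compress differences between abundant and rare transcripts. The authors deposited expected counts per gene without normalisation, and TPM and FPKM per library. Per the submitters' processing notes, HISAT2 2.0.4, Bowtie2 2.2.5 and RSEM 1.2.12 were used on GRCh38.p13, with their roles not given. The authors' deposited table also gives log2 fold changes, p-values and q-values. The authors' scaled read counts (a signal per gene) and group means were deposited but not used.

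Expected counts, which run from 20061136 to 21599805 per library, were rounded to whole numbers and filtered with filterByExpr (minimum count 10, minimum total 15, share 0.7), which kept 12832 genes. All 9 libraries shared 1 fit, scaled by TMM. The two-sided quasi-likelihood test of edgeR 4.0.16 (R 4.3.3, limma 3.58.1) was run with robust dispersions, and its p-values were adjusted by Benjamini-Hochberg over every tested gene, with calls at 0.05. "Called", "rose" and "fell" refer to that level. The biological coefficient of variation was 14.4%. A standard error is the size of the log2 fold change over the root of its F statistic. The fit was tested on simulated data.

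The members and the gene lists were chosen with earlier results of these data known. All 10 members and the 5 other network genes are named. Of every other list, up to 4 genes are named, the top 2 in each direction by log2 fold change at 100 µM among called genes with a mean of at least 5 CPM, or at 50 µM where none passed. For likeness of pattern, the 3 genes with the highest Pearson r (log2 CPM, prior count 2) are named for the 3 members with the smallest adjusted p at 100 µM; 1 of those for MXD4, and 1 marker gene, are not reported here. Promoters were matched by gene ID to RefSeq's table, without chromosome 8. Alternatives were DESeq2 1.42.0, RLE factors, total counts only, no filter, the 2 groups compared only, omission of each library and of the 2 that stand apart, the replicate number as a block, and limma on log2(TPM + 1).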

Additional observations from a re-analysis of the deposited data

How the results depend on the processing

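For the 10 members in 3 comparisons, 420 alternative values kept their direction and their side of the threshold. Another 47 gained the threshold, 35 lost it and 8 reversed, none of the 8 for a called change. The reversed values were those of MNT at 50 µM against DMSO (-0.05 without both libraries that stand apart, and -0.04 to 0.13 over the single omissions, lowest without control replicate 1) and, between the doses, of MAX (0.12 without both, and -0.12 to 0.11 over the omissions, above 0 without 50 µM replicate 3 or 100 µM replicate 3), MLX (up to 0.03, without 100 µM replicate 1) and MGA (0.04 with limma, and -0.15 to 0.06 over the omissions, highest without 100 µM replicate 2). The order of members was the same by FPKM.

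Members called at 50 µM against DMSO numbered 3, and they were 6 with only those 2 groups, 5 with limma, 7 without both libraries that stand apart and 0 to 7 over the single omissions (in the omissions with 0, edgeR's unadjusted p was under 0.05 for 3 to 5 members). At 100 µM against DMSO 3 were called, with 8 by DESeq2, 5 with total counts only, 1 (MXD4) with only those 2 groups, 10 without both and 2 to 7 over the omissions. Between the doses 1 was called, with 5 without both and 0 to 5 over the omissions (with 0, unadjusted p under 0.05 for 2 to 4 members). Over all genes, 1488 were called at 50 µM, with 2531 by DESeq2, 4269 with only those 2 groups, 7398 without both and 90 to 4739 over the omissions. At 100 µM 2692 were called, with 1024 with only those 2 groups, 6272 without both and 1055 to 3856 over the omissions. For DESeq2 and total counts only at 100 µM, and for limma at 50 µM, no count over all genes is given. The member counts of those settings are therefore not set against all genes. Between the doses 532 were called, with 1352 by DESeq2, 251 with only those 2 groups, 6105 without both and 43 to 3561 over the omissions. With fewer libraries the fit has fewer degrees of freedom. The cause of the other shifts was not tested.

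The replicate number as a block, which is a shared number and no known pairing (same-numbered libraries had correlations of -0.464 to 0.276), gave 427 genes and 1 member (MXD3) at 50 µM, 1672 genes at 100 µM, and 109 genes and 0 members between the doses, where edgeR's unadjusted p was under 0.05 for 3 members and DESeq2 called 1. Over all genes, standard errors had a median of 0.134 (log2). Without both libraries that stand apart, 2669 of the 2692 genes called at 100 µM remained called.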
